A study of Mus musculus with 6 samples.

Results

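The 8 genes described here are mouse genes named for the olfactomedin domain: Olfml3, Olfml2a, Olfml2b and Olfml1 (olfactomedin-like), Olfm1, Olfm2 and Olfm3 (the noelins), and Myoc (myocilin). They were taken by symbol from a table of 41449 rows, and each matched 1 row. Olfml3 was included because its difference between the genotypes was already known, so its values are given as a description and no test is read from it. The other 7 were included for their family name.

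The study measured RNA in lenses of 2-month-old mice, in 3 libraries of wild-type mice (WT, strain C57BL/6) and 3 of mice with a conditional knockout of fibronectin (FNcKO, mixed background of C57BL/6, 129 and FVB/N). Each library held 2 microdissected lenses, and the labels call the 3 samples of each genotype biological replicates. The question was what fibronectin, a matrix glycoprotein bound by integrins, does in the lens after birth. The promoter that drives Cre in FNcKO is not given in the sources used here, and effects of genotype and of strain background cannot be told apart in any comparison below.

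The olfactomedin domain is a folded propeller of sheets found mainly in secreted or cell-surface glycoproteins. Many of these proteins sit in the extracellular matrix or hold partner proteins together outside the cell. Olfml3 is secreted, has been described as a scaffold that brings the BMP antagonist chordin to the proteases that cut it, and is made by microglia and by cells of blood vessel walls in other tissues. Myocilin is best known from the trabecular meshwork of the eye, where altered forms cause glaucoma, and the noelins are best known from neurons.

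All levels are FPKM (fragments scaled by transcript length and by the size of the library), so levels of different genes can be set side by side. Fn1, the targeted gene, was low in both genotypes, with means of 0.192 ± 0.0592 FPKM for WT and 0.09 ± 0.0399 FPKM for FNcKO (SD, n = 3 each). Estimated depth was 26400000 to 31700000 fragments per WT library and 19800000 to 21700000 per FNcKO library. The summed levels of 6 markers of lens epithelium overlapped between genotypes (75.8 to 82.0 and 73.4 to 81.4 FPKM), and all 9 lens fiber cell markers were above 1 FPKM. The summed level of the fiber markers without Bfsp2, which has no value in WT replicate 2, was 70080 to 75130 FPKM in WT and 80700 to 85340 FPKM in FNcKO, without overlap, and 0 of 9 passed limma, with 1 at an unadjusted p under 0.05. In WT replicate 2, 8.63% of all rows have no value, but all 8 olfactomedin genes have a value in every library.

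In WT lenses Olfml3 was the most abundant of the 8 genes, and in FNcKO lenses it was several times lower, at the level of Olfml2a. Its level was 31.3, 33.9 and 29.6 FPKM in WT replicates 1 to 3, and 6.38, 7.36 and 7.19 FPKM in FNcKO replicates 1 to 3. Every FNcKO library lay below every WT library, and the lowest WT value was far from the highest FNcKO value. The means were 31.6 ± 2.17 FPKM and 6.98 ± 0.524 FPKM (SD, n = 3 each), which is 4.54-fold lower in FNcKO. The log2 change on the log2(FPKM + 1) scale was -2.03 (SE 0.0816). In whole lenses, fewer cells that make a transcript and less of it per cell cannot be told apart.

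Olfml3 lies on the minus strand of chromosome 3, from 103735394 to 103738001 (GRCm38), and GENCODE gives it 3 exons and a coding sequence of 1218 bases. The deposited row ends short of the longest annotated transcript, whose last exon runs on for 3729 bases, so fragments from that stretch may not be in its value. Another row, LOC108168889, reaches 933 of these bases and was at 0 in all 6 libraries. The 250 bases upstream of the start of Olfml3 are shown with those of Olfml2a, since these are the genes whose levels differed in WT and met in FNcKO. Both are RefSeq sequence of build GRCm38.p6, read 5′ to 3′ on the strand of the gene, and each ends at the base before the start. Capitals mark every match to GGGCGG (the GC box) or CANNTG (the E-box) on either strand, so that a GC box on the other strand reads CCGCCC.

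Olfml3, chr3:103738002-103738251, minus strand: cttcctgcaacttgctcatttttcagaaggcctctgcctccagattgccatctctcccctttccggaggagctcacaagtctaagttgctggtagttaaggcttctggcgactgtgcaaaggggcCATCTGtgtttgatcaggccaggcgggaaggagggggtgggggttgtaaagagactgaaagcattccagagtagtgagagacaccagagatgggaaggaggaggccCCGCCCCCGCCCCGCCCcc

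Olfml2a, chr2:38931730-38931979, plus strand: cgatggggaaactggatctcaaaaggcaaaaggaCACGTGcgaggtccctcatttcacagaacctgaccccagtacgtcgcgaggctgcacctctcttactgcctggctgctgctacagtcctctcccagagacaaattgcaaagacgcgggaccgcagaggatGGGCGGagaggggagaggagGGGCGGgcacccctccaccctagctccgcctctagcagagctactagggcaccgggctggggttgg

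The Olfml3 stretch holds 3 GC boxes, whose first bases lie 19, 13 and 8 bases before the start, with the last 2 sharing a base, and 1 E-box at 125 bases. The Olfml2a stretch holds 2 GC boxes, at 86 and 66 bases, and 1 E-box at 216 bases. Of 32817 mouse promoter stretches of the same length, 32.7% hold a GC box and 66.2% hold an E-box. Neither stretch holds a TATAAA or a CCAAT on either strand, which 12.4% and 33.8% of promoters do. The GC content was 57.6% with 6 CpG for Olfml3 and 61.6% with 13 CpG for Olfml2a, beside medians of 52.4% and 6 over all promoters. RefSeq describes C57BL/6J mice, and the sequence carried by the mixed-background FNcKO mice is not known here. A match is a run of letters and not a bound site.

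The spread of Olfml3 within each genotype can be set beside its counting error. From the estimated depth, its level rested on roughly 1525, 1481 and 1202 fragments per WT library, and 213, 241 and 219 per FNcKO library. Counting error alone would then give a coefficient of variation of 2.56% to 2.88% in WT and 6.44% to 6.85% in FNcKO. The observed values between libraries were 6.86% and 7.52%. Among all 41449 rows ordered by mean level, Olfml3 stood at place 1077 in WT and place 3258 in FNcKO.

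**Figure D1:**
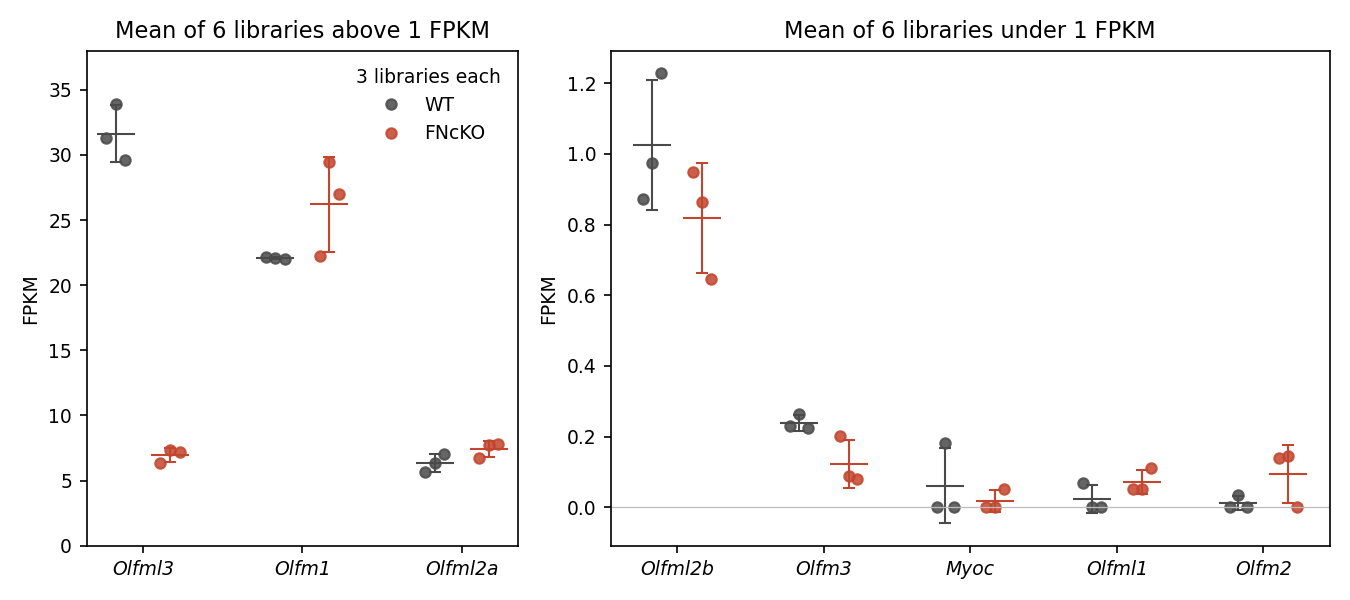
FPKM of the 8 olfactomedin genes in each library (points), with the group mean and SD (bars, n = 3), WT in grey and FNcKO in red. The left panel holds the 3 genes that averaged 1 FPKM or more over the 6 libraries and the right panel, on its own scale, the other 5. Olfml3 lies at 29.6 to 33.9 FPKM in WT and at 6.38 to 7.36 FPKM in FNcKO, next to Olfml2a, while Olfm1 stays above 22 FPKM in every library.

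Of the 8 genes, 3 reached the mean of 1 FPKM needed for the comparison over all genes, and 5 did not. By limma with Benjamini-Hochberg adjustment over 10149 genes, 1 of these 3 was past the threshold of 0.05, in the direction lower in FNcKO, and it is Olfml3, which was chosen for this difference. Over all genes tested 1.89% were called, 1.03% as lower and 0.857% as higher. Without a filter on low values all 8 genes were tested and again 1 was called, beside 0.366% of 27623 genes.

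Among the noelins only Olfm1 was present at more than 1 FPKM, and its mean was higher in FNcKO without passing the test. Olfm1, a secreted glycoprotein of neurons that associates with AMPA-type glutamate receptors and with the Nogo receptor, lies on chromosome 2 (28193093 to 28230736, plus strand, 6 exons). It stood at 22.2, 22.1 and 22.0 FPKM in WT and at 22.3, 29.4 and 27.0 FPKM in FNcKO. FNcKO replicates 2 and 3 were above all WT libraries, while FNcKO replicate 1 was only just above them. The means were 22.1 ± 0.0705 and 26.2 ± 3.65 FPKM (SD, n = 3 each), 1.19-fold higher in FNcKO, with a log2 change of 0.23 (SE 0.107, limma adjusted p = 0.333). The groups did not overlap, as for 25.6% of all genes tested (9.31% higher in FNcKO and 16.3% lower). The WT libraries lay closer together than counting error alone would place them. Their coefficient of variation was 0.319%, below the 2.36% to 2.59% that 1487 to 1797 fragments would give.

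Olfm3, which forms complexes with the other noelins, was near the limit of detection (chromosome 3, 114904078 to 115125764, plus strand). It stood at 0.229, 0.265 and 0.224 FPKM in WT and at 0.201, 0.0874 and 0.0812 FPKM in FNcKO, or about 22 to 28 fragments per WT library and 6 to 16.3 per FNcKO library. All FNcKO values lay below all WT values, with FNcKO replicate 1 close to the WT group. The means were 0.239 ± 0.0222 and 0.123 ± 0.0675 FPKM (SD, n = 3 each), 1.94-fold lower in FNcKO. With the filter lowered to 0.1 FPKM its log2 change was -0.14 and its limma adjusted p 0.374. At that filter 5 of the 8 genes were tested and 1, Olfml3, was called, beside 1.01% of 17545 genes. The groups of 3 of the 5 did not overlap (Olfm1 higher, Olfml3 and Olfm3 lower), beside 22.1% of those genes, 9.07% higher and 13.0% lower. When the FPKM totals without crystallins were set equal, the groups of Olfm3 overlapped.

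Olfm2, the third noelin, was listed at 0 in WT replicates 1 and 3 and in FNcKO replicate 3 (chromosome 9, 20667691 to 20746307, minus strand). The other libraries had 0.036 FPKM in WT replicate 2, and 0.139 and 0.145 FPKM in FNcKO replicates 1 and 2, about 1.8 to 5.6 fragments each. The groups overlapped, and no difference was detectable at this depth. In every library Olfm1 was thus far above both other noelins.

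Olfml2a and Olfml2b encode photomedins, secreted proteins that bind sulfated sugar chains of the matrix, and they were present at unequal levels. Olfml2a (chromosome 2, 38931980 to 38960585, plus strand, 8 exons) stood at 5.64, 6.33 and 7.04 FPKM in WT and at 6.71, 7.71 and 7.81 FPKM in FNcKO. The groups overlapped, because FNcKO replicate 1 lay below WT replicate 3. The means were 6.34 ± 0.704 and 7.41 ± 0.609 FPKM (SD, n = 3 each), 1.17-fold higher in FNcKO, with a log2 change of 0.20 (SE 0.0968, limma adjusted p = 0.353). Between 322 and 411 fragments per library gave a counting error of 4.93% to 5.57%, below the 11.1% and 8.21% seen between libraries. The row of Olfml2a also ends short of its annotated transcript, by 3168 bases.

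Olfml2b (chromosome 1, 170644423 to 170682789, plus strand, 8 exons) stood at 0.873, 0.975 and 1.23 FPKM in WT and at 0.948, 0.863 and 0.647 FPKM in FNcKO. The highest value was a WT library and the lowest an FNcKO library, but the groups overlapped. The means were 1.03 ± 0.183 and 0.819 ± 0.155 FPKM (SD, n = 3 each), 1.25-fold lower in FNcKO as deposited and 1.09-fold higher when FPKM totals without crystallins were set equal. With the filter at 0.1 FPKM the log2 change was -0.15 (limma adjusted p = 0.563).

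Myoc and Olfml1 were close to absent from the lens libraries. Myoc (chromosome 1, 162639150 to 162649694, plus strand, 3 exons) was listed at 0 in 4 libraries, with 0.183 FPKM in WT replicate 2 and 0.0525 FPKM in FNcKO replicate 3, about 9.7 and 1.9 fragments. Olfml1 (chromosome 7, 107567433 to 107591365, plus strand, 3 exons) was listed at 0 in WT replicates 2 and 3. It had 0.0697 FPKM in WT replicate 1 and 0.0517, 0.0523 and 0.111 FPKM in FNcKO replicates 1 to 3, or at most 3.3 fragments. For both genes the groups overlapped and no difference was detectable at this depth.

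The order of the 5 most abundant genes differed between genotypes in the place of Olfml3. In WT it ran Olfml3, Olfm1, Olfml2a, Olfml2b and Olfm3, with no overlap between neighbours in that order, and then Myoc, Olfml1 and Olfm2, whose values overlapped. In FNcKO Olfm1 came first, and Olfml2a and Olfml3 overlapped behind it, followed by Olfml2b. The place of Olfm1 among all rows was 1387 in WT and 1173 in FNcKO, and that of Olfml2a was 3555 and 3120.

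Ratios within a library do not depend on scaling between libraries, and of the 3 ratios among Olfml3, Olfm1 and Olfml2a those with Olfml3 separated the genotypes. The ratio of Olfml3 to Olfm1 was 1.41, 1.54 and 1.35 in WT and 0.287, 0.250 and 0.267 in FNcKO. The ratio of Olfml3 to Olfml2a was 5.56, 5.37 and 4.21 in WT and 0.950, 0.954 and 0.921 in FNcKO. By contrast, the ratio of Olfm1 to Olfml2a was 3.93, 3.49 and 3.13 in WT and 3.32, 3.82 and 3.45 in FNcKO, and the groups overlapped. These ratios are descriptions, since Olfml3 was chosen for its change.

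**Figure D2:**
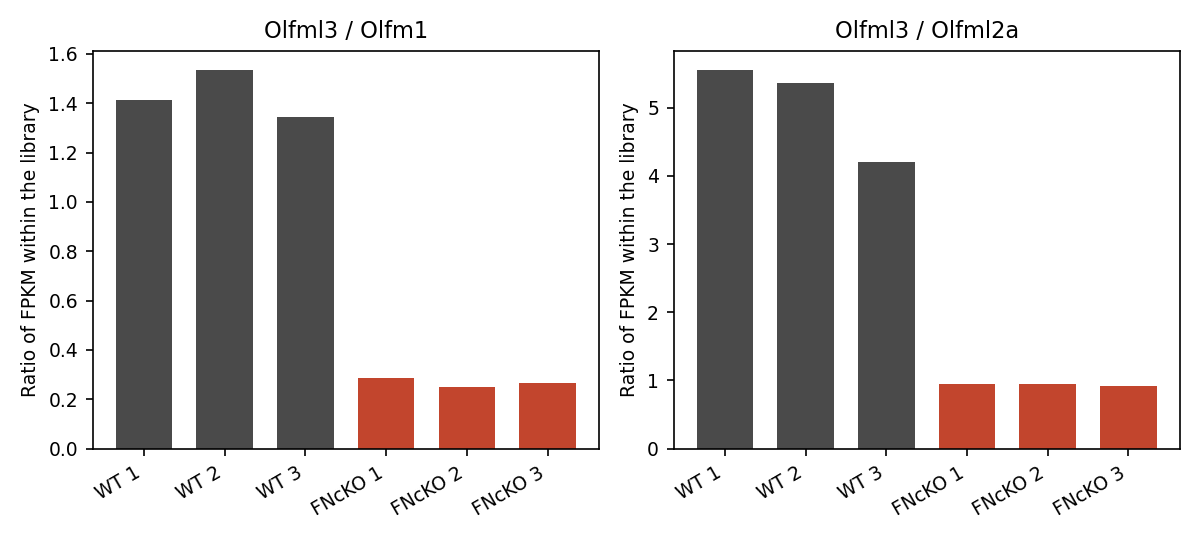
Ratio of the FPKM of Olfml3 to that of Olfm1 (left) and of Olfml2a (right) within each of the 6 libraries, WT in grey and FNcKO in red. The ratio to Olfm1 lies at 1.35 to 1.54 in WT and at 0.250 to 0.287 in FNcKO, and the ratio to Olfml2a at 4.21 to 5.56 and 0.921 to 0.954.

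The summed level of the family was lower in FNcKO, and the sum without Olfml3 was not. The 8 genes together came to 60.3, 63.8 and 60.2 FPKM in WT and to 36.7, 45.7 and 42.9 FPKM in FNcKO. Olfml3 made up 51.9%, 53.2% and 49.3% of that sum in WT and 17.4%, 16.1% and 16.8% in FNcKO. The other 7 genes summed to 29.0, 29.9 and 30.5 FPKM in WT and to 30.3, 38.3 and 35.7 FPKM in FNcKO. FNcKO replicates 2 and 3 were above WT in this second sum and FNcKO replicate 1 was within the WT range.

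The scaling between libraries moved the sizes of the differences between genotypes. Olfml3 stayed lower and Olfm1 and Olfml2a stayed higher in FNcKO, while Olfml2b changed direction with equal totals without crystallins. The order of genes within a library cannot change when all its values are multiplied by the same factor. When every library was set to the same FPKM total, the median log2 change of all genes moved from -0.04 to 0.15, and to 0.29 when crystallins were left out of the total. Olfml3 was then 3.78-fold and 3.32-fold lower in FNcKO, with no overlap of the groups, and its log2 change minus the median of all genes was -1.95 and -1.93, beside -1.99 as deposited. Olfm1 was 1.43-fold and 1.63-fold higher under the same scalings, and Olfml2a 1.40-fold and 1.59-fold higher. Relative to the median of all genes these are log2 changes of 0.32 and 0.35 for Olfm1 and of 0.27 and 0.28 for Olfml2a. Under these scalings and under median-ratio scaling the groups of Olfml2a no longer overlapped, but neither gene passed the limma test in any of the 15 alternatives run (adjusted p 0.113 to 0.537 for Olfm1 and 0.194 to 0.593 for Olfml2a).

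**Figure D3:**
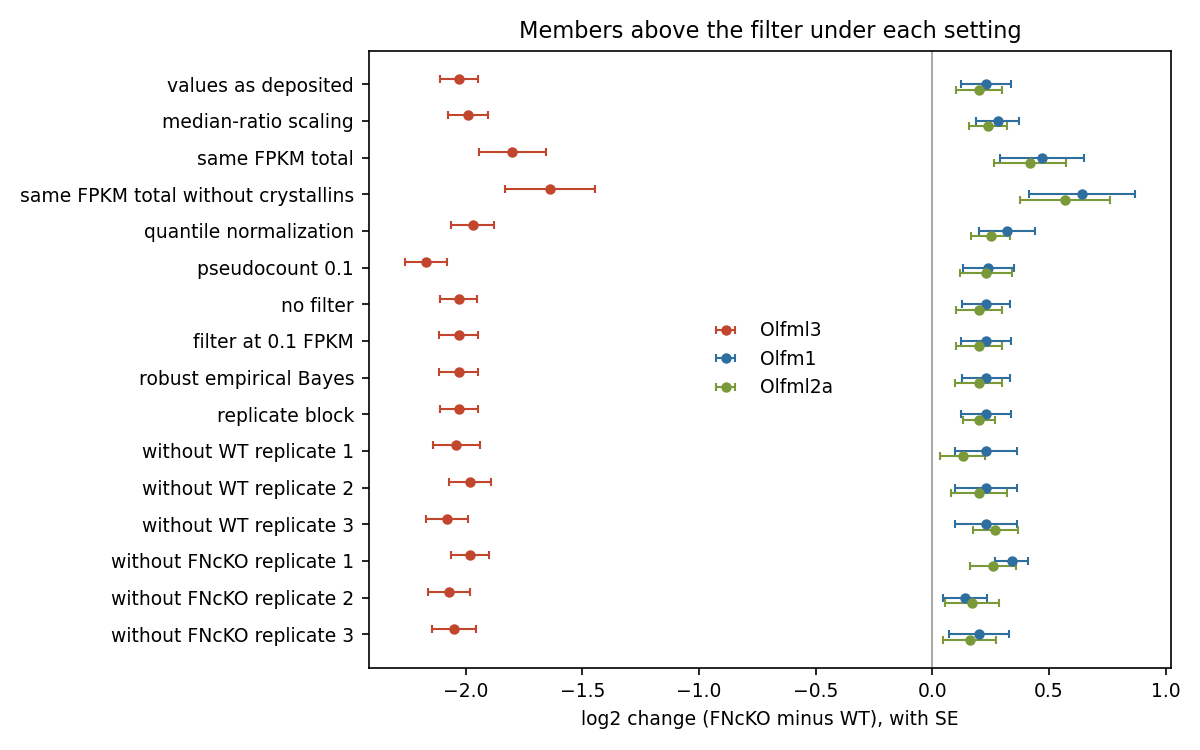
Log2 change (FNcKO minus WT) with its SE for Olfml3, Olfm1 and Olfml2a, with the values as deposited and under each of 15 other settings of scaling, pseudocount, filter, model and left-out library. Olfml3 lies between -2.17 and -1.64 throughout, and Olfm1 and Olfml2a lie between 0.13 and 0.64.

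The annotated transcripts of the 8 genes, with their untranslated parts, share only short identical runs. Among the 28 pairs of genes the longest run of identical bases in any of their transcripts was 11 to 27 bases. The 27 bases are shared by Olfml2a and Olfml2b. Olfm1, Olfm2 and Olfm3 were 64.5% to 68.8% identical over their aligned coding bases, and Olfml2a and Olfml2b were 63.4% identical. Olfml1, whose annotated coding sequence has only 699 bases, was 66.3% identical to Olfml2a and 66.4% to Olfml2b. These 2 values rest on 698 and 693 aligned bases, beside 1978 for Olfml2a with Olfml2b. Gaps are not counted, so the values do not rank pairs of unlike length. Over all 28 pairs identity ran from 52.5% to 68.8%. No other row of the table overlaps Olfml3, Olfm1, Olfml2a, Olfml2b, Olfm3 or Olfml1. Rows overlap Olfm2 and Myoc, and their levels were at most 0.0194 FPKM.

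No tested gene around Olfml3 passed the test. Within 1 Mb of either end the table has 36 rows, of which 10 were tested and 10 were at 0 in every library. None of the 10 tested passed the limma test (adjusted p 0.109 to 0.943), and 3 had an unadjusted p under 0.05, which 18.1% of all genes tested had. Their log2 changes ran from -0.37 to 0.11 with a median of -0.10, and 8 of 10 lay below 0. The 3 were Magi3 (log2 change -0.37), Phtf1 (-0.35) and Sike1 (-0.23), each lower in FNcKO without overlap as deposited, while with totals without crystallins set equal the changes were 0.02, -0.09 and 0.12. Hipk1, a nuclear protein kinase whose row begins 1813 bases from the start of Olfml3, stood at 13.6, 12.3 and 14.6 FPKM in WT and at 12.7, 12.2 and 12.3 FPKM in FNcKO (log2 change -0.11, adjusted p = 0.503, and 0.12 and 0.29 with FPKM totals set equal with and without crystallins).

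**Figure D4:**
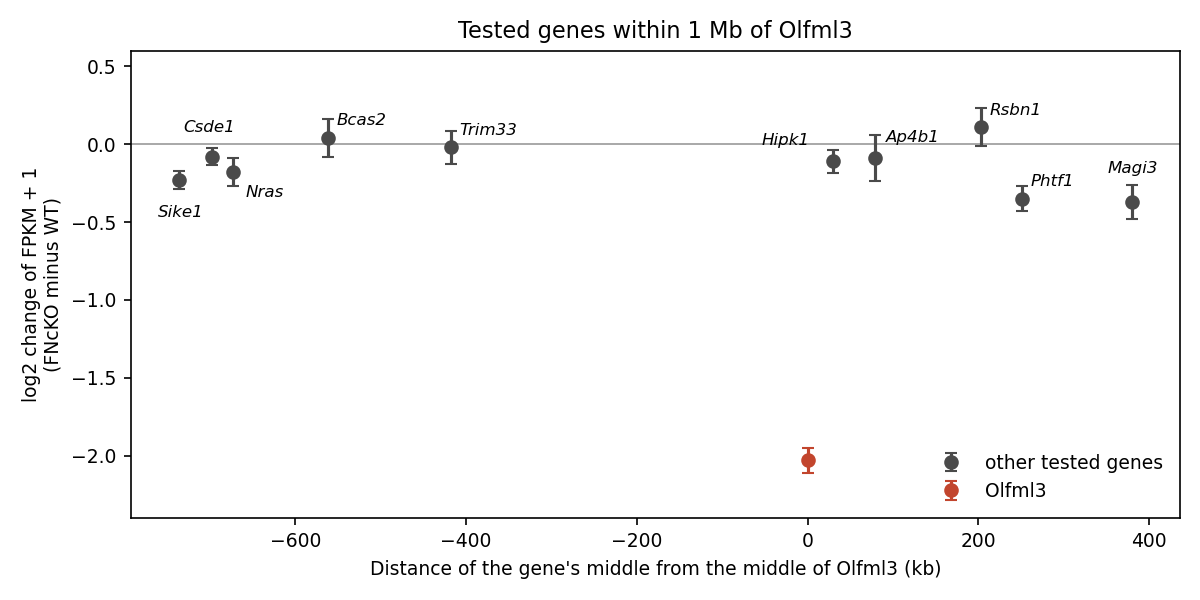
Log2 change of FPKM + 1 (FNcKO minus WT) with its SE for Olfml3 (red) and the 10 other tested genes within 1 Mb (grey), against the distance in kb between the middle of each gene and the middle of Olfml3. Olfml3 lies at -2.03, while the others lie between -0.37 and 0.11.

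The partners known for these proteins were mostly expressed at low levels, and none passed the test. Of 8 genes of chordin cleavage and BMP4 signalling, the setting in which Olfml3 has been described, 3 were tested, 0 passed limma and 1 had an unadjusted p under 0.05, beside 18.1% of all genes tested. That gene was Twsg1, a secreted modulator of chordin and BMP, at 7.22, 6.94 and 6.59 FPKM in WT and 4.92, 5.36 and 5.61 FPKM in FNcKO. Its groups did not overlap, with a log2 change of -0.33 (adjusted p = 0.081) as deposited and 0.04 with totals without crystallins set equal. Chordin itself (Chrd) had at most 0.0327 FPKM in any library.

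The other genes with an olfactomedin domain were described with the same test. Of 5 (Olfm4, Gldn and the latrophilins Adgrl1, Adgrl2 and Adgrl3, adhesion receptors of the cell surface), 2 were tested, 0 passed limma and 1 had an unadjusted p under 0.05, again beside 18.1% of all genes. Adgrl2 was at 4.36, 4.99 and 4.11 FPKM in WT and at 5.71, 5.82 and 5.02 FPKM in FNcKO (log2 change 0.25, adjusted p = 0.224). The groups of Adgrl2 did not overlap, as for 9.31% of all genes tested in that direction. Those of Adgrl1 did (log2 change -0.07, adjusted p = 0.787, and 0.14 and 0.29 with FPKM totals set equal with and without crystallins). Olfm4 and Adgrl3, both under the filter, were also higher in FNcKO without overlap. Their means in WT and FNcKO were 0.0588 and 0.149 FPKM (Olfm4) and 0.118 and 0.284 FPKM (Adgrl3). Of genes averaging 0.1 FPKM or more, 9.07% were higher in FNcKO without overlap. Of 11 latrophilin partners (teneurins, FLRT and UNC5 proteins) 4 were tested, 0 passed limma and 1 had an unadjusted p under 0.05 (18.1% over all genes), which was Tenm4 (log2 change 0.29, adjusted p = 0.26).

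Among partners of the noelins on neurons, Ngfr, the low-affinity neurotrophin receptor, was the only 1 of 9 above the filter, with means of 18.4 ± 1.30 FPKM for WT and 19.2 ± 0.989 FPKM for FNcKO (SD, n = 3 each). Its log2 change was 0.06 (limma adjusted p = 0.72). The AMPA receptor subunits Gria1, Gria2, Gria3 and Gria4 were below the filter, so Olfm1 was present at 22 FPKM and more in libraries with little of these partners. Of 9 Wnt antagonists 2 were tested and 0 passed limma, and 0 had an unadjusted p under 0.05. These are Dkk3 (log2 change 0.11, adjusted p = 0.437) and Sfrp1 (log2 change 0.07, adjusted p = 0.606), both secreted and both above 100 FPKM in every library.

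Lists of markers of other cells that make olfactomedin proteins were set beside Olfml3. Tmem119, a defining marker of microglia, was at 0 in every library. Of 10 markers of blood vessel cells, 2 were tested and Pdgfrb, the receptor that marks pericytes, passed as lower. Pdgfrb was at 4.67, 5.19 and 5.17 FPKM in WT and at 2.32, 2.36 and 2.1 FPKM in FNcKO (log2 change -0.88, SE 0.0689, adjusted p = 0.00572). It missed the threshold with FPKM totals set equal with and without crystallins (adjusted p 0.0686 and 0.177). The vessel list summed to 6.48 to 7.04 FPKM in WT and 4.07 to 4.73 FPKM in FNcKO, without overlap. Pdgfrb carried that difference: the other 9 markers summed to 1.81, 1.55 and 1.87 FPKM in WT and to 1.76, 2.37 and 2.32 FPKM in FNcKO, and the groups overlapped. Egfl7, secreted by endothelial cells, was the other marker tested and was higher in FNcKO without overlap (log2 change 0.23, adjusted p = 0.292). The endothelial marker Cdh5 and the pericyte marker Kcnj8 were at 0 in every library. Abcc9, under the filter, was at 0.300, 0.281 and 0.333 FPKM in WT and at 0.215, 0.118 and 0.149 FPKM in FNcKO. It was 1.89-fold lower in FNcKO without overlap, beside 13.0% of genes averaging 0.1 FPKM or more in that direction. The groups of Rgs5, Notch3, Tek, Kdr and Pecam1 overlapped. The part of vessel cells in the difference of Olfml3 was not tested.

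Markers of other eye tissues varied more between libraries. The 8 markers of ciliary body and iris summed to 21.8 to 30.5 FPKM in WT and 51.6 to 68.3 FPKM in FNcKO. Optc, a secreted proteoglycan of the ciliary body, and Aqp1 carried this sum, and the other 6 markers summed to 2.33, 2.19 and 3.49 FPKM in WT and to 2.65, 1.68 and 1.56 FPKM in FNcKO, with overlap. Mlana, a melanocyte protein under the filter, was at 0.286 to 0.476 FPKM in WT and at 0 in FNcKO. Of genes averaging 0.1 FPKM or more, 13.0% were lower in FNcKO without overlap. The groups of Tyr, Tyrp1, Dct and Pmel, on the same list, overlapped. Optc was 2.35-fold higher in FNcKO without overlap (log2 change 1.18, adjusted p = 0.0682), and passed with FPKM totals set equal with and without crystallins (adjusted p 0.033 and 0.0197). Aqp1, a water channel, was the 1 of 2 tested that passed, as higher (log2 change 1.39, SE 0.215, adjusted p = 0.0432), and leaving out any library except FNcKO replicate 1 ended that call. The 9 markers of keratocytes and trabecular meshwork, where myocilin is made, summed to 27.9 to 32.9 FPKM in WT and 17.9 to 46.2 FPKM in FNcKO. Aldh3a1, an abundant corneal enzyme, made up most of that sum, at 25.6 to 30.7 FPKM in WT and 13.6 to 43.3 FPKM in FNcKO. The other 8 markers summed to 2.324, 2.943 and 2.164 FPKM in WT and to 4.327, 2.958 and 4.222 FPKM in FNcKO. That remainder was higher in FNcKO without overlap, though FNcKO replicate 2 was only just above WT replicate 2. Col1a2 had the highest mean of these 8 in both genotypes. The groups of Chil1, Dcn, Lum, Mgp, Col1a1 and Angptl7 each overlapped, so the separation was not shared by these markers. Col1a2, a chain of collagen I, was 1.99-fold higher in FNcKO without overlap (adjusted p = 0.0636), and passed with FPKM totals set equal with and without crystallins (0.0439 and 0.0433) and with robust empirical Bayes (0.0357), while Kera was at 0 throughout. Neuronal markers, for tissue rich in Olfm1, summed to 4.85 to 9.11 FPKM in WT and 5.83 to 7.42 FPKM in FNcKO, and 0 of 3 tested passed limma, with 0 at an unadjusted p under 0.05. Rod photoreceptor markers, without Gnat1, summed to 23.8 to 66.3 FPKM in WT and 34.7 to 35.6 FPKM in FNcKO. Gnat1, the rod transducin, has no value in WT replicate 2 and was at 18.9 and 22.2 FPKM in WT and 8.84, 9.64 and 9.77 FPKM in FNcKO (log2 change -1.05, adjusted p = 0.0215), the 1 of 10 rod markers past the test, and leaving out any library that has a value for it ended the call. The part of these cells in the values of the 8 genes was not tested.

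The 5 genes whose values by library were most like those of Olfml3 were all higher in WT. Likeness was the root mean square difference in log2(FPKM + 1), after each gene was centred on its mean over the 6 libraries, among 7777 genes. H2-T24, a nonclassical class I histocompatibility gene, was nearest at 0.14, followed by the homeobox gene Pbx4 at 0.23, the collagen VI chain gene Col6a3 at 0.27, the gene of the dendritic microtubule protein Map2 at 0.30 and the growth factor gene Fgf1 at 0.31. Their mean levels were 14.5-fold (H2-T24), 10.1-fold (Pbx4), 8.61-fold (Col6a3), 4.33-fold (Map2) and 10.4-fold (Fgf1) lower in FNcKO. In FNcKO H2-T24 averaged 0.286 FPKM and Pbx4 0.331 FPKM, so Olfml3 at 6.98 FPKM was the most abundant of these 6 there. These genes were chosen by their values, and the 5 listed here lie on chromosomes other than that of Olfml3.

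**Figure D5:**
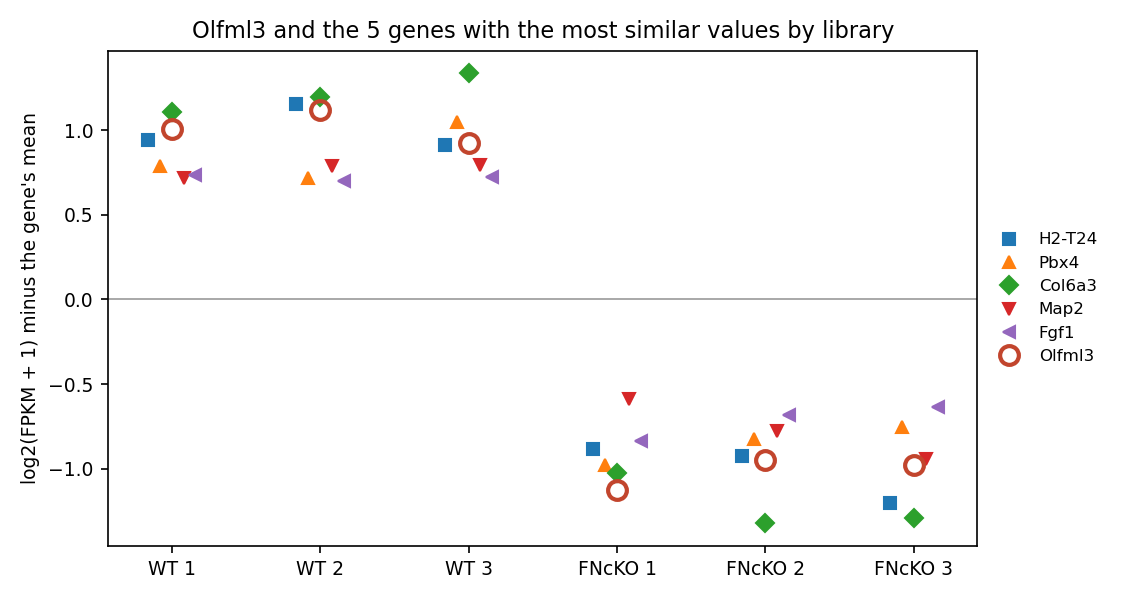
Log2(FPKM + 1) minus the mean of each gene over the 6 libraries, for Olfml3 (open red circles) and the 5 genes with the most similar values, by library. All 6 genes lie above 0 in the 3 WT libraries and below 0 in the 3 FNcKO libraries, and H2-T24 follows Olfml3 most closely, at a root mean square difference of 0.14.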

How the data were processed

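RNA of lenses was sequenced from pico-input libraries (SMARTer stranded kit), per the labels' protocols. The authors deposited 1 table of FPKM values with a column per library. The tools were FastQC, cutadapt 1.12, TopHat2 2.1.0 and Cuffdiff 2.2.1 and the builds GRCm38.p5 and mm10, per the submitters' processing notes. Not given in the sources used here are the use of strand, the annotation and any scaling between libraries.

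From the deposited FPKM, the 10149 genes averaging 1 FPKM or more were compared on log2(FPKM + 1) by limma 3.58.1 (R 4.3.3), two-sided, with trended empirical Bayes. P-values were adjusted by Benjamini-Hochberg over these genes, and 0.05 was the threshold. This scale understates changes of low genes, and folds are ratios of mean FPKM. Missing values of WT replicate 2 (3578 rows) were left out gene by gene, so 8 listed genes (Chrdl1, Tenm1, Bfsp2, Cx3cr1, Lingo1, Gria3, Gldn and Gnat1) have 2 WT values. Symbols turned into dates (27 rows) were not restored. On simulated data built from 9407 genes the test recovered 22.4% of 1.5-fold, 58.2% of 2-fold and 81.8% of 4-fold changes in FNcKO against WT, with 4 false calls.

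Depth was estimated from low values of genes with 1 exon, as the depth at which most became whole numbers, with an assumed fragment of 200 bases. Between 64.7% and 71.3% of these values came within 0.15 of a whole number, where 30% would by chance at a fixed depth. Fragment numbers and counting errors are therefore approximate, cover counting error only, and enter no test.

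Positions, exons and coding sequences are those of GENCODE M21 on GRCm38, and promoter sequences those of RefSeq, where all 8 genes matched. Coding sequences were aligned with Biopython 1.88. Named genes are the 8 members, Fn1, in each list those past the test or with the smallest p, the 5 genes most like Olfml3 (predicted genes and small RNAs left out by symbol) and its nearest tested neighbours. Chrd, the Gria genes, Magi3, Phtf1, Sike1, Egfl7, Abcc9, Optc, Mlana and markers at 0 were named after their values were seen. So were the other cell markers named as overlapping. The members, the lists and the tests were chosen with earlier results of these data known. Alternatives changed the scaling, pseudocount, filter, model, replicate block and left-out library.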

Additional observations from a re-analysis of the deposited data

How the results depend on the processing

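Over the 15 alternatives none of the 7 olfactomedin genes other than Olfml3 passed the limma test where it was tested. Olfml3 was chosen for its difference, so nothing is read from its call in each of them. The count of all genes past the test, 192, moved to 93 with equal FPKM totals, 89 with equal totals without crystallins, 101 without a filter, 323 with robust empirical Bayes, and 48 to 111 with a library left out. Calls as higher made up 45.3% of the count as deposited, 57.9% under median-ratio scaling, 60.4% under quantile normalization, and 72% and 77.5% with equal totals with and without crystallins. With the replicate number as a block 14 genes passed. The numbers share no label beyond a number, deviations of equal-numbered libraries correlated at -0.027, -0.055 and -0.046, and no library correlated best with its own number. Under that block Pbx4, Map2, Fgf1, Pdgfrb, Gnat1 and Aqp1 missed the threshold. The log2 change turned to 0.12 and 0.29 for Hipk1, 0.14 and 0.29 for Adgrl1, and 0.06 and 0.2 for Chrdl1, a chordin-like BMP antagonist, with equal totals with and without crystallins, to 0.04 for Twsg1, 0.02 for Magi3 and 0.12 for Sike1 without crystallins, and ran from -0.13 to 0.04 for Adgrl1 with a library left out, the 0.04 being without WT replicate 3. None of these passed the limma test, and the cause was not tested. Gnat1 passed in 7 and Aqp1 in 8 of 15 alternatives. At the estimated depths, differences in Olfm2, Olfml1 and Myoc of the size seen were not detectable.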
